A study of Mus musculus with 25 samples.

Results

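cEND cells, an immortalised line of mouse brain endothelium, were sequenced at passages 12, 14 and 18 (P12, P14 and P18), and the 3 P14 libraries were compared with the mean of the 3 P12 and 3 P18 libraries to find genes whose level at P14 did not lie between the other passages. Of 15466 genes tested, 3861 differed between P14 and that mean (25% of the genes tested, adjusted p under 0.05). In 3452 of these 3861 (89.4%, or 22.3% of the genes tested) the fitted P14 level lay outside both other passages. These 3452 genes, 1800 with P14 above both passages (11.6% of the genes tested) and 1652 with P14 below both (10.7%), are the members described here. The level of P14 fell outside both passages in 61.5% of all genes tested, called or not, so that lying outside is by itself common. Among members without overlap between P14 and the 6 other libraries and with a mean log2 CPM of at least 1 (CPM is counts per 1e6), the farthest from the nearer passage were Edn1, Thbs1, Ccn2 and Ccn1 above and C3, Dusp2, Adora2a and Col15a1 below. Among the lists of genes examined the interferon response had 30 of 32 genes below both passages at P14.

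The whole series held 25 libraries, of which 16 came from mouse hypothalamus and were not used here. The 9 cEND libraries came from cells given vehicle (DMSO), 0.5 µM WZB117 or 10 µM WZB117, which blocks Glut1 (the glucose transporter encoded by Slc2a1), and each of these treatments was sequenced once at each passage. Each passage group therefore held a DMSO, a 0.5 µM and a 10 µM library, and the fit took out the mean effect of treatment before passages were compared. The experiment was made to ask whether less glucose transport lowers Notch signalling, not to compare passages. Its 9 libraries are from a single line, so that the p-values here measure only the spread between libraries of that line, and passage, culture day and handling cannot be told apart. How long the cells were treated is not given in the sources used here.

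Brain endothelial cells line the capillaries of the blood-brain barrier, seal their contacts with tight junctions and answer to VEGF, angiopoietins, Notch ligands of neighbouring cells and circulating cytokines. Type I interferons act through factors that include STAT2 and IRF9, which bind an element called ISRE in the promoters of antiviral genes. The coactivators YAP and TAZ act through TEAD proteins, which bind a short element called MCAT, and respond to cell density, stretch and the actin cytoskeleton. SRF, a second factor tied to actin, binds the CArG box of smooth muscle and cytoskeletal genes.

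The 9 libraries held 27.3 to 41.3 M estimated counts (M is 1e6) and 20026 to 20748 detected genes. Of 22 pan-endothelial genes 21 passed the filter on low counts, led by Pecam1 at 1019 to 1557 CPM (counts per 1e6 of the library, scaled with TMM factors). The epithelial list summed to 0.341 to 1.38 CPM over all libraries, the astrocyte and neuron list to 1.72 to 4.61 CPM, and the leukocyte list to 11.1 to 22.1 CPM, of which Cd68 made up 8.82 to 20.04 CPM. Higher sums were found for the pericyte and smooth muscle list (603 to 1370 CPM) and the fibroblast list (2250 to 2980 CPM, of which Vim 1798 to 2187). In the pericyte and smooth muscle list Acta2, Cnn1 and Tagln each reached at most 4.505 CPM, and Pdgfrb, Abcc9 and Cspg4 were low as well. Of its 13 genes 5 (Rgs5, Kcnj8, Anpep, Des and Notch3) failed the filter on low counts. Most of the sum therefore came from other genes of that list. Pdgfra of the fibroblast list was at 76.0 to 99.4 CPM at P12, 30.5 to 34.6 at P14 and 31.4 to 34.9 at P18. Whether other cells were present was not tested. Ribosomal RNA made up 0.205% and 0.169% of the counts in the P14 DMSO and P14 0.5 µM libraries but at most 0.0146% in the other 7. The gene AY036118, annotated as a long intergenic RNA, was at 1075 and 1007 CPM in those libraries and at most 46.7 CPM elsewhere. Small nuclear RNA made up 0.291% and 0.206% in the P12 DMSO and P12 0.5 µM libraries and at most 0.0901% elsewhere. The part of these differences in the results was not tested, but with structural and mitochondrial RNA left out before fitting, 3475 genes met the same rule.

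Principal components of the log CPM placed P14 apart from both other passages. The first component, with 31.7% of the variance, ordered the passages, with P12 at -42.7 to -32.5, P14 at 2.1 to 4.9 and P18 at 27.8 to 40.6. The second, with 20.3%, had the P14 libraries at -36.7, -32.7 and -29.3 and all 6 others between 10 and 21.8. Within the same passage the chi-square per degree of freedom between libraries ran from 4.34 to 48, and between passages from 44.3 to 112, so that no pair of libraries agreed within sampling noise.

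**Figure D1:**
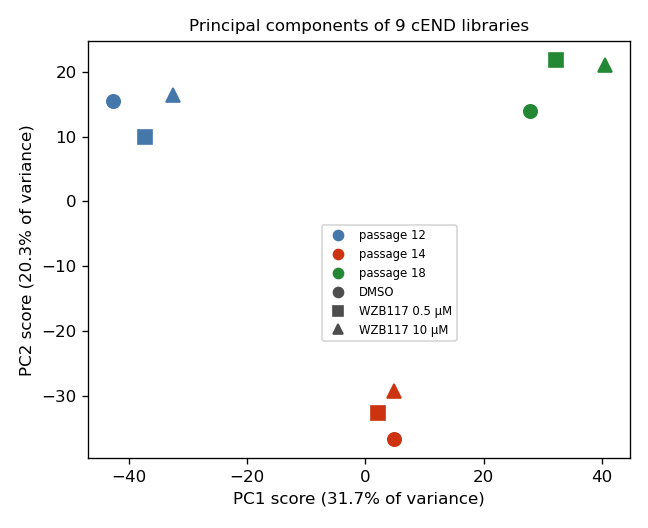
Scores of the 9 cEND libraries on the first (x) and second (y) principal components of log CPM, with colour for passage and shape for treatment. The 3 P14 libraries lie at -29.3 or lower on the second component while the P12 and P18 libraries all lie at 10 or higher.

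Promoter sequences of genes that carry the main patterns are shown first. They come from RefSeq on build GRCm38.p6, in which 250 bases upstream of each start were searched on both strands for the ISRE (TTTC, 2 bases of any kind, TTTC), the MCAT element (CATTCC), the AP-1 element (TGANTCA) and the CArG box. Each stretch is written 5′ to 3′ on the strand of its gene, with the matches of the motif it is shown for in capitals. The Rsad2 stretch also holds an AP-1 match, at -87 from the start, which is left in lower case. The first 3 are interferon-induced genes, which were lower at P14, and carry the ISRE in capitals. Ccn1 and Ankrd1 are genes of the YAP and TEAD list, which were higher at P14, and carry MCAT in capitals, in Ankrd1 as its reverse complement. The Ankrd1 stretch is upstream of the RefSeq start but lies within the gene as annotated in GENCODE M21 (36111961 to 36120099).
Ifit1 at chr19:34640754-34640863, plus strand: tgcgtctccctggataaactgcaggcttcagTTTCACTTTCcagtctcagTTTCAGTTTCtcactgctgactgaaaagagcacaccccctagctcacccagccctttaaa
Ifit3 at chr19:34583357-34583466, plus strand: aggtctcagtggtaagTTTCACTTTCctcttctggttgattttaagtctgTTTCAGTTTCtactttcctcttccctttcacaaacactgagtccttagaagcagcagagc
Rsad2 at chr12:26456513-26456622, minus strand: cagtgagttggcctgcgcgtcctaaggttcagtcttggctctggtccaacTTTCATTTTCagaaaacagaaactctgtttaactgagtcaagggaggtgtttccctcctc
Ccn1 at chr3:145650031-145650140, minus strand: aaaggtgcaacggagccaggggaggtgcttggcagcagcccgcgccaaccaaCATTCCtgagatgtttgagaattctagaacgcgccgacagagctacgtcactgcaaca
Ankrd1 at chr19:36119910-36120019, minus strand: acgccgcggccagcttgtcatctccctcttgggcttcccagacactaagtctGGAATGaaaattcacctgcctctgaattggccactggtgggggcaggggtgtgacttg

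The ISRE was present in 11 of the 26 interferon response genes with a listed promoter (42.3%), against 3.27% of the 10397 tested genes with one and 2.98% of all 32851 promoters. In Ifit1 the 2 matches began at -104 and -85 from the start of transcription, and in Ifit3 at -156 and -122. The MCAT element was present in 7 of 13 YAP and TEAD genes with a promoter (53.8%) and in 13% of tested genes. In the 15 named genes with P14 above both passages, 11 had a promoter and 4 of these held MCAT (Edn1, Ccn1, Acta2 and Ankrd1), 2 held the ISRE (Edn1 and Stat4) and none held AP-1 or a CArG box. Among the 10 with a promoter of the 15 named genes below both, 1 (Ifit3b) held the ISRE and AP-1, and none held MCAT. AP-1 was found in 5.58% of tested genes and in 6 of the 26 interferon genes, and the CArG box in 1.37% of tested genes. The motifs were searched separately, so that matches of different motifs may overlap, and a match describes the sequence only.

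The members with P14 above both passages were led by secreted proteins. Endothelin 1 (Edn1, a vasoconstrictor peptide, chromosome 13, 42301476 to 42307990, plus strand, GRCm38 with GENCODE M21) stood at 33.2, 35.5 and 27.5 CPM in the P14 DMSO, 0.5 µM and 10 µM libraries. It stood at 8.53, 6.82 and 4.70 CPM at P12 and at 5.83, 2.62 and 4.14 CPM at P18, in the same order of treatments. All 3 P14 libraries were above the 6 others, which was a condition for naming the gene here. For this and all ratios below, the mean of the other passages was taken on the log2 scale, so that it differs from the mean of the CPM. The level was 6.16 times that mean (log2 difference 2.62 ± 0.21 SE, adjusted p = 0.000426, edgeR quasi-likelihood test with Benjamini-Hochberg adjustment, 2-sided, as for all adjusted p below).

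Thrombospondin 1 (Thbs1, a matrix glycoprotein that restrains angiogenesis and activates latent TGF-beta, chromosome 2, 118111876 to 118127133, plus strand) had the second largest distance. Its CPM was 421, 440.3 and 403 at P14, 100.2, 90.8 and 93.6 at P12, and 64.8, 44.0 and 50.4 at P18. P14 was higher by 2.16 ± 0.09 on the log2 scale over P12 and by 3.00 ± 0.10 over P18. Connective tissue growth factor (Ccn2, chromosome 10, 24595442 to 24598683, plus strand) gave 192, 201 and 226 CPM at P14 against 44.2 to 51.4 at P12 and 27.2 to 40.9 at P18 (log2 difference 2.33 ± 0.09, adjusted p = 1.12e-08). Its relative Ccn1 (Cyr61, chromosome 3, 145646976 to 145649981, minus strand) gave 148, 138 and 122 CPM at P14 against 32.9 to 41.5 at P12 and 21.7 to 33.0 at P18 (log2 difference 2.12 ± 0.07, adjusted p = 2.19e-15). Both are matricellular proteins widely used as readouts of YAP.

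Activin A subunit Inhba was at 5.36, 5.14 and 5.68 CPM at P14 and at 1.19 to 2.10 CPM in the 6 others (log2 difference 1.90 ± 0.17). The cytokine Il24 was at 12.4, 12.7 and 17.6 CPM against 1.51 to 6.31 in the others (1.92 ± 0.14). Apelin (Apln, a peptide of sprouting endothelium) was at 527, 518 and 447 CPM at P14, at 236 to 273 CPM at P12 and at 173 to 256 CPM at P18 (1.12 ± 0.06).

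Intracellular genes were among them as well. Mtmr10, of the myotubularin phosphatase family, differed hardly between P12 (64.3, 56.3 and 59.1 CPM) and P18 (66.8, 54.0 and 58.7 CPM) but gave 181, 176 and 157 CPM at P14, 2.87 times their mean (adjusted p = 2.69e-17). The actin nucleator Cobl was at 12.6 to 13.6 CPM at P14 and 1.83 to 4.20 CPM elsewhere, and the signal transducer Stat4 at 11.2 to 13.2 CPM and 2.58 to 6.35 CPM. Tuft1 (7.42 to 12.4 CPM at P14, 1.16 to 3.39 elsewhere), Klhdc8a (20.8 to 25.4 and 5.16 to 11.3) and the cadherin Cdh26 (19.6 to 21.3 and 3.15 to 9.62) completed the named genes above both passages together with Acta2, Ankrd1 and Serpinb1c. Serpinb1c, at 3.92 to 4.87 CPM against 1.33 to 2.05, belongs to a family of near-identical serpins, among which counting can split reads.

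The members with P14 below both passages were led by complement C3 (the central protein of the complement cascade, chromosome 17, 57203970 to 57228136, minus strand). C3 was at 8.12, 8.62 and 7.45 CPM at P14, at 97.1, 89.5 and 94.1 CPM at P12 and at 33.5, 36.7 and 31.3 CPM at P18. The 3 passages did not overlap, and P14 was at 0.143 of the mean of the others (log2 difference -2.80 ± 0.08, adjusted p = 5.78e-20). Lipocalin 2 (Lcn2, an iron-siderophore binding acute phase protein) showed the same order, at 12.1, 12.1 and 12.0 CPM at P14, 169, 159 and 184 CPM at P12 and 30.4, 30.2 and 31.6 CPM at P18 (-2.58 ± 0.07, adjusted p = 2.45e-20). Col15a1, a collagen of the basement membrane zone, was at 4.56, 4.41 and 1.86 CPM at P14, 32.8, 33.8 and 24.0 CPM at P12 and 12.5, 12.6 and 8.39 CPM at P18 (-2.38 ± 0.12). These 3 genes also differed between P18 and P12, with P18 the lower.

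Further genes were below both passages. The water channel Aqp1 was at 14.98, 14.1 and 23.1 CPM at P14, at 39.2, 43.8 and 77.1 CPM at P12 and at 35.8, 41.4 and 59.8 CPM at P18, and was highest at 10 µM in each passage (log2 difference -1.49 ± 0.07). Fractalkine (Cx3cl1, a membrane-bound chemokine) was at 29.7, 32.3 and 45.4 CPM at P14, 79.7, 80.2 and 172 CPM at P12 and 75.5, 77.4 and 124 CPM at P18 (-1.46 ± 0.09). The NAD-consuming ectoenzyme Cd38 was at 13.8 to 25.7 CPM at P14 and 40.2 to 73.7 in the others, and the GTPase Gimap6 at 28.3 to 42.7 and 66.4 to 117. P18 minus P12 was -0.02 in Cd38 and -0.05 in Gimap6 on the log2 scale, with adjusted p of 0.874 and 0.619. It was -0.20 in Aqp1 (adjusted p = 0.0426), -0.67 in Adora2a (0.00151), -0.63 in Dusp2 (0.00971) and -0.96 in Arhgef17 (4.29e-06), so that P18 was the lower in these. The adenosine receptor Adora2a (1.35 to 1.51 CPM at P14, 4.11 to 8.70 elsewhere), the phosphatase Dusp2 (0.901 to 1.26 and 3.01 to 6.69), the BH3-only protein Bmf (3.45 to 4.90 and 10.8 to 15.4), the exchange factor Arhgef17 (2.02 to 2.32 and 5.27 to 12.3) and Rcsd1 (2.73 to 3.80 and 7.204 to 11.5) were also among the 15 named genes below both. Lack of overlap with the 6 other libraries was a condition for all 15. Dapk2, Gbp6, Gbp10 and Ifit3b complete the 15, and of these Gbp6, Gbp10 and Ifit3b have near-identical paralogs, so that their shares of reads are uncertain. Dapk2 (adjusted p = 1.13e-08) and Gbp10 (0.000637) lost their call when treatment was left out of the fit, with adjusted p of 0.0873 and 0.0864.

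**Figure D2:**
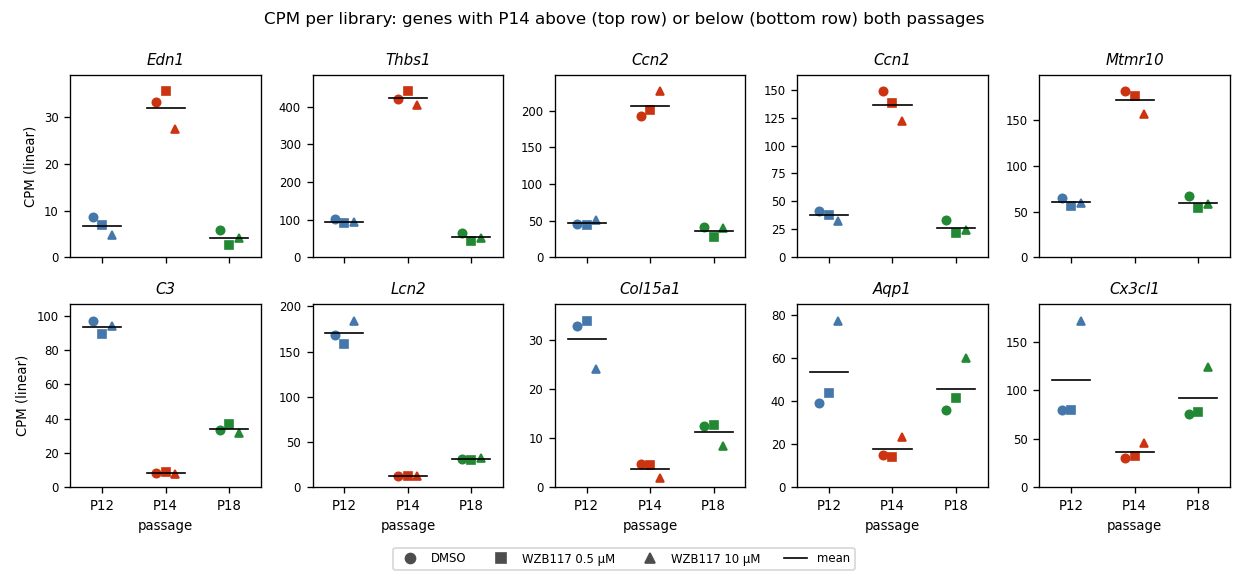
CPM (y, linear axis from 0) of 10 genes in each of the 9 libraries by passage (x), with shape for treatment and a line at the mean of 3 libraries. P14 lies above all other libraries in the top row, with Edn1 at 27.5 to 35.5 CPM, and below them in the bottom row, with C3 at 7.45 to 8.62 CPM. The genes were chosen for this lack of overlap.

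Most members moved far less than these. The median distance from P14 to the nearer of the other passages was 0.19 on the log2 scale among members above and 0.23 among members below. At least 2-fold from the nearer passage were 72 members above (0.466% of genes tested) and 103 below (0.666%). Both pairwise comparisons were called as well in 1520 genes (9.83%), 693 with P14 above (4.48%) and 827 below (5.35%). In 913 genes all 3 P14 libraries were above all 6 others (5.9%), and in 940 all were below (6.08%). At the threshold, Mdc1 (log2 difference 0.23 ± 0.08, adjusted p = 0.05 after rounding) lay just inside, and Ap2a2 (0.14 ± 0.05, adjusted p = 0.05 after rounding) just outside. A further 409 genes were called but had P14 between the other passages. The P14 difference at 10 µM departed from that of the other treatments in 31 genes (0.2%), of which 4 were members. For comparison, 3336 genes (21.6%) differed between P14 and P12, 5121 (33.1%) between P14 and P18, and 5422 (35.1%) between P18 and P12.

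**Figure D3:**
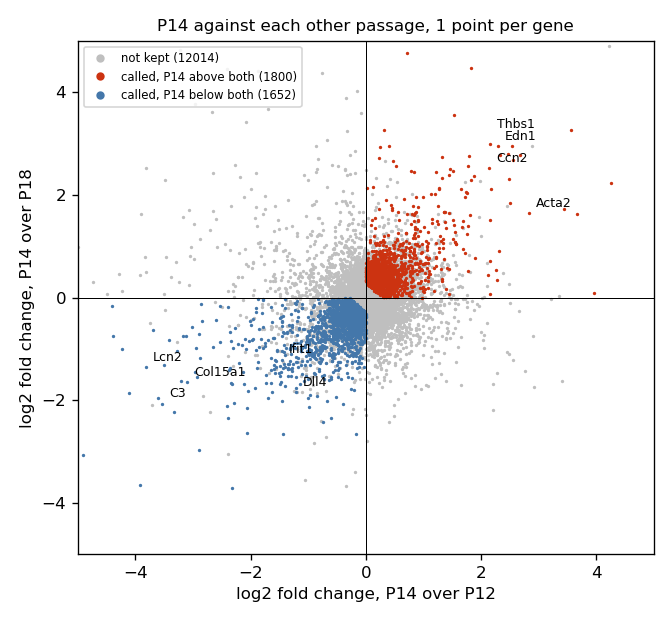
Log2 fold change of P14 over P12 (x) and over P18 (y) for each gene tested, with the 1800 members above both passages in red, the 1652 below both in blue and other genes in grey. Thbs1, Edn1 and Ccn2 lie far into the upper right and C3, Lcn2 and Col15a1 into the lower left, while 23 genes lie beyond the axis limits of 5 and are not drawn.

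The interferon response list was lower at P14 almost throughout. Of 32 genes tested, 31 were called lower and 30 were members with P14 below both passages, against 10.7% of all genes, and none was called higher. In 26 of the 32 all 3 P14 libraries were below all 6 others, against 6.08% of all genes. The median log2 difference over the list was -0.85, against 0.02 over all genes tested. Among the sensors and effectors, Ifit1 (which binds viral RNA) was at 35.1, 32.2 and 22.3 CPM at P14, 86.9, 88.7 and 68.5 CPM at P12 and 67.3, 82.3 and 56.2 CPM at P18. Its log2 difference was -1.33 ± 0.07 (adjusted p = 2.27e-13), and every P14 library was below the lowest of the others.

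Viperin (Rsad2, an antiviral radical-SAM enzyme) was at 42.0, 40.7 and 39.9 CPM at P14, 98.6, 99.1 and 102 CPM at P12 and 71.3, 79.3 and 82.3 CPM at P18 (-1.11 ± 0.06). Ifit3, which shares reads with its near-identical copy Ifit3b, was at 20.7, 20.5 and 14.4 CPM at P14 and at 32.7 to 54.5 CPM in the others (-1.28 ± 0.07). Ifit2 (-1.06 ± 0.07) had its highest P14 library, at 35.6 CPM, just above the P18 10 µM library at 35.3 CPM, and so was 1 of the few called members that overlapped. Further members, chosen after their values were seen, cover the signalling proteins: Irf7 was at 46.0 to 56.6 CPM at P14 and 83.0 to 104 CPM in the others (-0.91 ± 0.07), Irf9 at 43.8 to 54.1 and 63.7 to 76.2 (-0.55 ± 0.06), and the ubiquitin-like modifier Isg15 at 9.71 to 12.9 and 19.3 to 27.5 (-1.05 ± 0.09). The exceptions were the MHC class I gene H2-D1 (-0.11, adjusted p = 0.15) and the chemokine Cxcl10, which was called lower but lay between P12 and P18. The count of members below both passages stayed between 28 and 30 under all alternatives tried.

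The difference was present in each treatment. In the median over the list of log2(CPM + 1), centred for each gene on its 9-library mean, the P14 libraries stood at -0.39 (DMSO), -0.46 (0.5 µM) and -0.69 (10 µM), P12 at 0.37, 0.36 and 0.28, and P18 at 0.21, 0.30 and 0.08. The P14 library was thus below the P12 and P18 library of its own treatment in every case.

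Inflammatory genes of the endothelium were mixed in their order. Of 26 genes tested, 18 were called lower at P14 than the mean of the others (12.1% of all genes). As members, 15 were below both passages (10.7% of all genes) and 5 above both (11.6%). Lower were, besides C3 and Lcn2, the leukocyte adhesion molecules E-selectin (Sele, 70.0 to 82.2 CPM at P14, 148 to 202 at P12, 92.8 to 107 at P18) and P-selectin (Selp, 53.5 to 58.8, 121 to 143 and 60.7 to 72.1). The log2 difference of Selp was -0.24 from P18 and -1.23 from P12, so that P14 was nearer to P18. The median of the list was -1.16 against P12 and -0.24 against P18. Named after their values were seen, the members above both passages were Ptgs2, Csf1, Icam1, Cxcl12 and Tnfaip3, with log2 differences of 0.76, 0.46, 0.40, 1.13 and 0.30. Cebpd, an acute phase transcription factor of the glucocorticoid list, fell by 1.0 ± 0.06 and all P14 libraries (33.7 to 45.1 CPM) were below the others (47.0 to 124 CPM).

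Targets of YAP and TEAD stood mostly above both passages. Of 18 genes tested, 10 were members above both (11.6% of all genes) and 2 below both (10.7%). In 9 of the 18 all P14 libraries were above the 6 others, against 5.9% of all genes. The median was 0.40. Besides Ccn1 and Ccn2, the titin-binding Ankrd1 was at 58.7, 63.9 and 57.9 CPM at P14, 28.8, 21.8 and 22.5 CPM at P12 and 11.4, 8.30 and 7.69 CPM at P18 (2.03 ± 0.08). The LIM protein Ajuba was at 89.2 to 91.9 CPM at P14, 49.5 to 55.5 at P12 and 31.9 to 35.7 at P18 (1.11 ± 0.06), and Crim1, a transmembrane BMP antagonist, at 452 to 543, 234 to 256 and 303 to 382 (0.83 ± 0.05). The exceptions below were Arhgef17, with a log2 difference of -1.90 ± 0.14, and Amotl1 (-0.23). Leaving out single libraries or changing the fit left 9 or 10 members above both.

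Genes of TGF-beta and BMP signalling moved in both directions. Of 21 tested, 7 were members above both passages and 6 below both, against 11.6% and 10.7% of all genes. The ligands Tgfb2 (22.2 to 32.4 CPM at P14, 8.62 to 18.1 elsewhere, 1.12 ± 0.08) and Inhba and the inhibitory Smad7 (24.5 to 31.5 and 12.2 to 17.5, 0.89 ± 0.08) were above. Named after their values were seen, the receptors Tgfbr1 (-0.46) and Tgfbr2 (-0.34) and the ligand Tgfb1 (-0.42) were below. In the extracellular matrix list of 35 genes, 6 were above both and 7 below both, nearer to those shares. Fibronectin (Fn1) was at 771, 750 and 702 CPM at P14, 361, 358 and 450.3 CPM at P12 and 484, 434 and 476 CPM at P18 (0.81 ± 0.06), and Timp2 at 464 to 482 against 245 to 333 CPM (0.70 ± 0.05). Mmp14, a membrane collagenase, was at 66.5 to 68.4 CPM at P14 and 116 to 137 CPM in the others (-0.88 ± 0.06), and Col8a1 at 182 to 271 and 299 to 532 (-0.90 ± 0.06), a call that was lost without treatment in the fit (adjusted p = 0.0694).

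Contractile genes of smooth muscle rose from very low levels. Smooth muscle actin (Acta2) was at 3.64, 4.50 and 3.71 CPM at P14, 0.670, 0.466 and 0.531 CPM at P12 and 1.57, 1.40 and 0.888 CPM at P18 (2.23 ± 0.21, adjusted p = 3.26e-09). Calponin (Cnn1) was at 2.60 to 2.75 CPM against 0.0353 to 0.961 (2.58 ± 0.30) and transgelin (Tagln) at 1.45 to 2.09 against 0.202 to 0.874 (2.18 ± 0.31). Of 13 pericyte and smooth muscle genes 8 were tested, and these were the 3 called higher, with no overlap. Over all genes, 12.9% were called higher and 5.9% had all P14 libraries above the 6 others. Mcam, which endothelium also expresses, was called lower than the mean (-0.17, adjusted p = 0.0141) but lay between the other passages. Among the pericyte markers, Pdgfrb had means of 3.02, 1.36 and 0.857 CPM at P12, P14 and P18, Abcc9 1.51, 1.29 and 1.51, and Cspg4 0.601, 0.0274 and 0.0175 (named after their values were seen). In bulk libraries fewer or more cells of a type and less or more RNA per cell cannot be told apart. Among the actin and adhesion genes, caveolin 1 (Cav1) was at 902, 947 and 980 CPM at P14, 426 to 457 at P12 and 629.7 to 726 at P18 (0.78 ± 0.06), and tropomyosin Tpm1 at 441 to 468 against 304 to 344 CPM (0.48 ± 0.05).

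**Figure D4:**
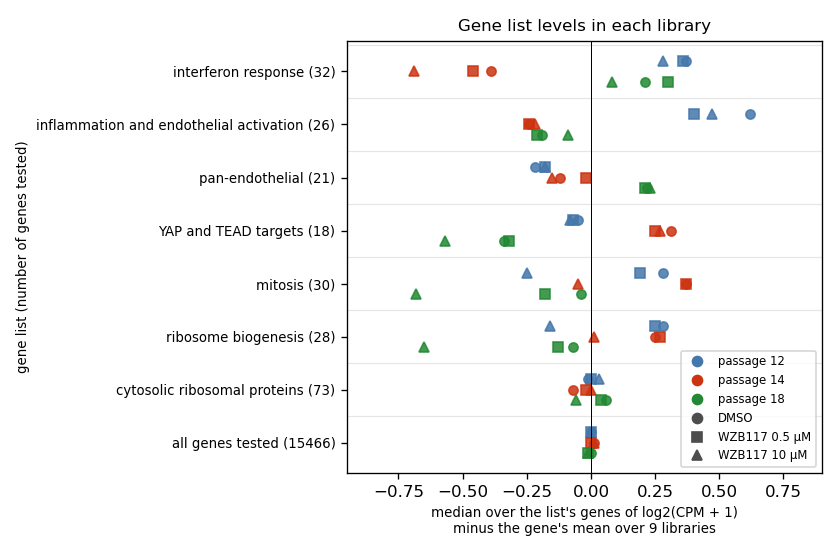
Median over each list (y) of log2(CPM + 1) after centring each gene on its mean over the 9 libraries (x), with 1 point per library, colour for passage and shape for treatment. P14 is lowest for the interferon response (-0.69 to -0.39) and highest for YAP and TEAD targets (0.25 to 0.31), while in mitosis and ribosome biogenesis the 10 µM libraries lie left of the others of their passage.

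Endothelial genes were split at P14. Of 21 pan-endothelial genes tested, 9 were members below both passages and 3 above (against 10.7% and 11.6% of all genes). With both pairwise comparisons called, 5 were below and 3 above (5.35% and 4.48% of all genes). All P14 libraries were below the 6 others in 3 genes of the list and above them in 2 (6.08% and 5.9% of all genes). The list summed to 7690 to 7870 CPM at P12, 8020 to 8420 at P14 and 10500 to 11000 at P18, so that P14 lay between. Its median difference was 0.045 from P12 and -0.346 from P18. The members named next are all among the 9 below. The angiopoietin receptor Tek (Tie2) was at 177, 186 and 170.1 CPM at P14, 252, 247 and 243 CPM at P12 and 359, 424 and 330.0 CPM at P18 (-0.77 ± 0.06, adjusted p = 9.76e-11), with no overlap. The VEGF receptor Kdr was at 505, 520.1 and 385 CPM at P14, 660, 643 and 506 CPM at P12 and 680.0, 768 and 578 CPM at P18 (-0.45 ± 0.06). Within each treatment P14 had the lowest Kdr level, while the groups overlapped across treatments, and without treatment in the fit its adjusted p was 0.0693. Mmrn2, a matrix protein of endothelium, was at 98.1 to 106 CPM at P14, 125 to 135 at P12 and 241 to 265 at P18 (-0.83 ± 0.06). Tie1 and Clec14a were called lower than the mean, but their P14 levels differed from P12 by only -0.12 and -0.07 (adjusted p = 0.175 and 0.51). VE-cadherin (Cdh5) was at 756, 775 and 765 CPM at P14, 750.3 to 881 at P12 and 921 to 1051 at P18 (-0.22 ± 0.06), a call lost without the P14 10 µM library (adjusted p = 0.099). The difference of Cdh5 from P12 was not called (-0.085, adjusted p = 0.385). Pecam1 lay between P12 and P18.

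Among junction genes of the blood-brain barrier, claudin 5 (Cldn5, the main claudin of brain capillaries, chromosome 16, 18776847 to 18778262, plus strand) was at 101.1, 101.4 and 103 CPM at P14, 159, 174 and 191 CPM at P12 and 222, 224 and 273 CPM at P18. P14 had 0.5 of the mean level of the others (log2 difference -1.0 ± 0.06, adjusted p = 6.73e-13). The junctional adhesion molecule F11r was at 169 to 193 CPM against 224 to 258 CPM (-0.41 ± 0.05). Cingulin (Cgn) went the other way, at 3.31 to 5.82 CPM against 0.932 to 2.33 CPM (1.71 ± 0.18). Of the 17 barrier genes tested 5 were members above both and 3 below both (against 11.6% and 10.7% of all genes), and Slco1c1 had 0 counts in every library. In the VEGF and angiopoietin list, 8 of 20 were below both and 5 above (10.7% and 11.6% of all genes). Vegfc, a lymphangiogenic factor, was at 12.4 to 13.7 CPM at P14 and 25.8 to 31.6 CPM elsewhere (-1.11 ± 0.07).

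Several Notch receptors and ligands were lower at P14 and none was called higher and outside both passages. The ligand Dll4, which marks tip cells and arteries (chromosome 2, 119325784 to 119335962, plus strand), was at 7.35, 9.98 and 7.80 CPM at P14, 17.9, 18.6 and 21.7 CPM at P12 and 27.6, 33.1 and 29.8 CPM at P18. All P14 libraries were below all others (-1.53 ± 0.09, adjusted p = 6.2e-13). The ligand Jag2 was at 3.48 to 4.38 CPM at P14, 4.02 to 4.72 at P12 and 7.77 to 8.70 at P18 (-0.67 ± 0.13), and its difference from P12 was not called (adjusted p = 0.348). Jag1, at 105 to 140.2 CPM at P14 and 108 to 156 CPM in the others, had a difference of -0.05 ± 0.06 (adjusted p = 0.572).

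The endothelial receptor Notch4 was at 234, 224 and 182 CPM at P14, 222, 256 and 218 CPM at P12 and 314, 311 and 339 CPM at P18 (-0.36 ± 0.07, adjusted p = 0.00128), again with no call against P12 (adjusted p = 0.338). Notch1 lay between the passages, with means of 240.5, 278 and 288 CPM at P12, P14 and P18. In all, 8 of 23 receptor, ligand and processing genes were members below both and none above (against 10.7% and 11.6% of all genes). Of the 23, 4 were below both with both pairwise comparisons called (5.35% of all genes). Among the 8 were the sheddase Adam17 (122 to 130 CPM at P14, 145 to 165 elsewhere) and the Notch antagonist Numb (42.9 to 46.2 and 46.8 to 66.7). The count of 8 was 5 without treatment in the fit.

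The Notch targets did not follow one direction. Hes1, a repressor induced by Notch, was at 29.7, 28.4 and 37.4 CPM at P14, 35.5, 36.9 and 40.6 CPM at P12 and 44.8, 48.2 and 53.6 CPM at P18 (-0.44 ± 0.06, adjusted p = 5.85e-06), lowest at P14 within each treatment. Nrarp, a feedback inhibitor, was at 75.6, 75.0 and 86.2 CPM at P14, 40.3, 46.1 and 59.5 CPM at P12 and 62.2, 52.5 and 86.2 CPM at P18 (0.49 ± 0.08, adjusted p = 0.00014), and lost its call without treatment in the fit (0.113). Hey1 was under 1.26 CPM in every library (0.68 ± 0.34, adjusted p = 0.159), and Heyl had 0 counts throughout. Of 10 targets tested, 3 were below both and 2 above (against 10.7% and 11.6% of all genes).

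**Figure D5:**
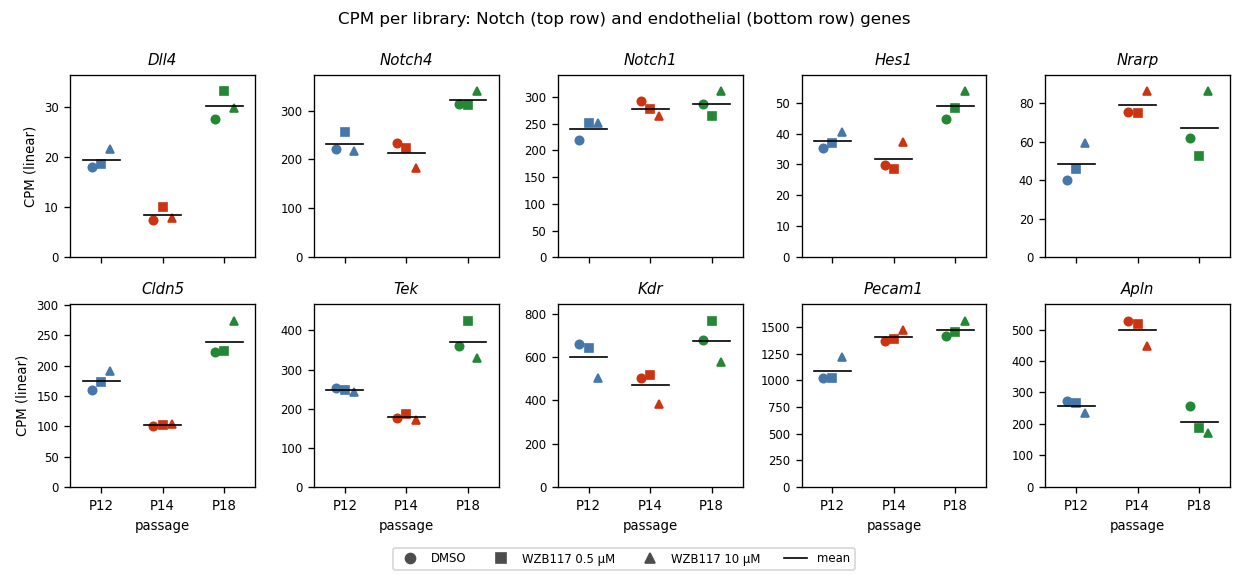
CPM (y, linear axis from 0) of 5 Notch genes and 5 endothelial genes in each library by passage (x), with shape for treatment and a line at the mean of 3 libraries. Dll4 and Cldn5 are lowest in all 3 P14 libraries, Apln is highest in them, and the P14 means of Notch1 and Pecam1 lie between those of P12 and P18.

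Cell division genes were higher at P14 by small amounts, which were called with treatment in the fit and mostly not without it. Of 30 mitosis genes, 26 were members above both passages (11.6% of all genes) and none below, but in none did the P14 libraries stand clear of the 6 others, and without treatment in the fit the count was 2. The median was 0.33, made of 0.13 over P12 and 0.54 over P18, and 12 genes were called against both. Mki67, a marker of cycling cells, was at 526, 487 and 374 CPM at P14, 388, 361 and 280 CPM at P12 and 334, 322 and 256 CPM at P18 (0.52 ± 0.05, adjusted p = 1.11e-08, and 0.0509 without treatment in the fit). Foxm1 was at 106, 108 and 82.4 CPM at P14, 84.6, 80.3 and 67.1 CPM at P12 and 58.5, 49.5 and 47.4 CPM at P18 (0.64 ± 0.06). Both were highest at P14 and lowest at 10 µM in each passage. Ribosome biogenesis was similar, with 17 of 28 genes above both, 2 of them called against both passages, a median of 0.07 over P12, and counts of 0 without treatment in the fit and 10 without the 10 µM libraries. Of 35 replication genes 6 were above both and none below, and of 73 ribosomal protein genes 3 were below both and none above, against 11.6% and 10.7% of all genes.

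Genes of glucose uptake and glycolysis differed by small amounts. Slc2a1 was at 99.6, 105.0 and 323 CPM at P14, 70.8, 72.0 and 369 CPM at P12 and 83.7, 77.7 and 267 CPM at P18, so that P14 was highest with DMSO and 0.5 µM but not at 10 µM. Over all 9 libraries it was not called (0.29 ± 0.15, adjusted p = 0.273), but without the 10 µM libraries it was (0.42, adjusted p = 4.67e-07). It was also called without the P12 10 µM library (0.41, adjusted p = 1.78e-06) and, with all libraries, without the filter on low counts (0.29, adjusted p = 0.0471). Of 20 glycolysis genes, 8 were above both and 1, Txnip (-0.40 ± 0.06), below both, against 11.6% and 10.7% of all genes. Pgk1, above both, was at 1604, 1674 and 2248 CPM at P14, 1241 to 2053 at P12 and 1196 to 1772 at P18 (0.34 ± 0.05). That count of 8 was 1 without treatment in the fit, 3 without the P14 0.5 µM library, and 5 without the P12 0.5 µM or the P18 10 µM library. Insr, the insulin receptor, was not called (-0.04 ± 0.06, adjusted p = 0.705). Vegfa was called (0.19 ± 0.06, adjusted p = 0.0252) but not by DESeq2 (adjusted p = 0.0516), nor without treatment in the fit (adjusted p = 0.874), nor without any 1 of the P12 DMSO, P14 DMSO, P12 0.5 µM, P14 0.5 µM, P18 0.5 µM or P18 10 µM libraries (adjusted p up to 0.169).

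Of 21 lysosomal genes 7 were below both and 1 above (against 10.7% and 11.6% of all genes). A negative difference was seen in 20 of them, against 7309 of all 15466 genes tested. Examples are cathepsin B (Ctsb, 390.0 to 416 CPM at P14, 482 to 564 in the others, -0.35 ± 0.06) and progranulin (Grn, 496 to 521 and 622 to 850, -0.51 ± 0.05). Of 22 p53 targets and CDK inhibitors 6 were below both and 2 above (against 10.7% and 11.6% of all genes), among the lower the death receptor Fas (11.02 to 16.0 CPM at P14, 16.2 to 39.6 elsewhere, -1.03 ± 0.08). Of 13 MAPK feedback genes 4 were below both and 2 above (against 10.7% and 11.6% of all genes). Among the lower, the phosphatase Dusp6 was at 98.6 to 115 CPM at P14 and 176 to 221 CPM in the others (-0.86 ± 0.06). Among the higher, Epha2 was at 174.5 to 180.4 CPM at P14 and 105.4 to 152.6 CPM in the others (0.50 ± 0.05). Of 16 heat shock genes 6 were called higher and none lower (against 12.9% and 12.1% of all genes). Above both passages were 4 (11.6% of all genes), none of them called against both.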

How the data were processed

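RNA was sequenced from 9 libraries of cEND cells, 3 treatments at each of 3 passages. The authors deposited estimated counts for each Ensembl gene without scaling, on build GRCm38 per the submitters' processing notes; 19.8% of the values are not whole. The counting program, annotation release and strand setting are not given in the sources used here, so that reads of antisense or overlapping genes cannot be told apart. Counts were rounded, and 556 of 44674 genes had no symbol in GENCODE M21. Of these 44674, 15466 passed filterByExpr. TMM scaling and the quasi-likelihood test of edgeR 4.0.16 in R 4.3.3 were used with passage and treatment as terms (4 residual degrees of freedom). The treatment term is a block that pairs libraries by the treatment in the labels. P14 was tested against the mean of P12 and P18 and against each, 2-sided, with Benjamini-Hochberg adjustment over all genes tested (adjusted p threshold 0.05). The script was tested on simulated data. CPM uses the TMM factors.

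Named genes were of 3 kinds. The first were the 15 per direction farthest from the nearer passage, among genes called, outside both passages, without overlap between P14 and the 6 others, at a mean log2 CPM of at least 1 and with a symbol that is not a placeholder. The others were up to 4 members of each of 41 lists by smallest p, and a fixed set of Notch and endothelial genes whatever their values. The members and lists were chosen with earlier results of these data known. A test of whether the P14 difference at 10 µM departs from the other treatments, and the counts of lists under alternatives, were added after seeing the data. DESeq2 1.42.0 was an alternative. Some genes are not reported here.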

Additional observations from a re-analysis of the deposited data

Results flagged for a closer look

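The P14 difference at 10 µM departed from that of the other treatments in 31 of 15466 genes (0.2%, adjusted p under 0.05, edgeR quasi-likelihood test of an interaction term; 958 at an unadjusted p under 0.05), and 4 of these 31 were members. Each value below is P14 minus the mean of P12 and P18 on the log2(CPM + 1) scale, in the order DMSO, 0.5 µM and 10 µM. The rRNA pseudouridine synthase Dkc1 had 0.19, 0.24 and 0.74, an interaction of 0.533 (adjusted p = 0.0367). The inhibin and activin subunit Inhbb had -0.34, -0.49 and -1.03, an interaction of -0.616 (adjusted p = 0.0169), with 57.5 CPM at 10 µM in P14 against 86.8 in P12 and 162 in P18. Sestrin 3 (Sesn3) had -0.29, -0.31 and -0.93, an interaction of -0.645 (adjusted p = 0.0433). The mitochondrial gene mt-Nd4 had 0.58, 0.60 and 0.07, an interaction of -0.533 (adjusted p = 0.0309). In all 4 the 3 treatments had the same sign against the mean of P12 and P18. P14 was nevertheless not outside both passages in every treatment. It lay between P12 and P18 for Dkc1 and Inhbb with DMSO, for Sesn3 at 0.5 µM and for mt-Nd4 at 10 µM. Each interaction rests on 1 library per passage at 10 µM. The P14 DMSO and 0.5 µM libraries are also those with more ribosomal RNA, whose part in these results was not tested.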

How the results depend on the processing

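In every alternative in which they were tested, all 3452 members kept the sign of P14 minus the mean of the other passages. That sign does not tell whether P14 stayed outside both passages. The alternatives reuse libraries in which the members were called, so that a change of sign was unlikely from the start. Without the replicate block (treatment left out of the fit) the counts were 1837 genes called against the mean, 1714 of them outside both passages, 665 called against both, 1623 between P14 and P12, 2924 between P14 and P18 and 3269 between P18 and P12. Of the 3452 members, 49.6% were members without the block. Leaving out each library in turn gave 2446 to 3880 genes called, 2272 to 3495 outside both passages, 949 to 1490 called against both and 2086 to 3668 between P14 and P12. The lowest counts came without the P14 0.5 µM library, where 63.2% of the members remained, except that between P14 and P12 (2086 without P12 DMSO, 2102 without P14 0.5 µM). With DESeq2 size factors, DESeq2, other filters, structural RNA left out, the 10 µM libraries left out or a straight line from P12 to P18, each count stayed within 1.5 times. Of 177 named genes, 111 neither lost a call nor changed sign under the 17 alternatives. Insr, which was not called, changed sign to 0.04 without the 10 µM libraries and 0.045 against the straight line, and ran from -0.096 to 0.052 when single libraries were left out. The causes were not tested. Each arm holds 1 passage of 1 line, so that no depth of sequencing can add replicates of passage.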

Other observations

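Counts of members differed between chromosomes, which was not tested (over all genes tested, 11.6% were above both passages and 10.7% below). On chromosome 13, 121 members had P14 above both passages and 29 below, of 577 genes tested, and the median log2 difference of all genes there was 0.13, against 0.02 over all chromosomes. That median was 0.04 from P12 and 0.22 from P18, and was largest between 20 and 40 Mb (0.26 over 127 genes). Centred on each gene's mean, the chromosome 13 medians of the P14 libraries (0.084, 0.103 and 0.061) overlapped those of P12 (0.102, 0.035 and 0.032) and lay above those of P18 (-0.103, -0.091 and -0.181). On chromosome 12 the balance was the other way, with 28 members above and 91 below of 516 genes tested, and a median of -0.06. The P14 libraries had chromosome 12 medians of -0.059, -0.052 and -0.031 and the 6 others -0.027 to 0.071, so that the groups did not overlap, though by a small margin. On chromosome X, 81 members were above and 34 below of 470.

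Most members were protein-coding genes: 3291 of 12573 tested (26.2%), against 35 of 476 long intergenic RNAs (7.35%) and 10 of 149 small nucleolar RNAs (6.71%), 9 of the latter with P14 below both. Members were also more abundant, with a median mean log2 CPM of 5.27 against 4.21 over all genes tested.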
